A study of Mus musculus with 108 samples.

Results

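Mouse chromosomes 14 and 19 stood at the opposite ends of the 20 chromosomes in the fold of 1 chromatin state between livers of mice of 3 and 12 months of age. Both chromosomes were described beyond their first 3 Mb, which are unassembled, in consecutive bins of 200 bp that each carry the label of 1 of 8 chromatin states. Chromosome 14 comprised 609511 such bins and chromosome 19 comprised 292157, so that 901668 of the 13168874 bins of the series were described. The pair was chosen by the fold of state 7 between SD 3m and SD 12m, which was 13.5 on chromosome 14, the largest of the 20 chromosomes, and 1.44 on chromosome 19, the smallest. The nearest chromosomes that were not chosen were chromosome 15, with a fold of 12.6, and chromosome 7, with a fold of 3.01. In coverage in SD 12m, chromosomes 1, 3 and 4 lay above chromosome 14, with 18.5%, 18.2% and 17.3% against 15.2%. They also gained more percentage points, 15.8, 16.1 and 14.6 against 14.1, while chromosome 19 was the lowest in both measures. The state 7 levels of SD 3m and SD 12m on the pair are therefore a description of what selected it.

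Livers came from C57BL/6 female mice and were formalin-fixed and paraffin-embedded, and chromatin was immunoprecipitated for H3K4me3, H3K27me3, H3K27ac and H3K4me1. The SD 3m group (8 mice, 30 libraries) and the SD 12m group (8 mice, 29 libraries) were fed a standard diet until 3 and 12 months of age, and the CR 12m group (9 mice, 29 libraries) received 30% fewer calories from 3 until 12 months of age. In this order, H3K4me3 had 7, 8 and 5 libraries, H3K27me3 7, 8 and 6, H3K27ac 8, 7 and 9, and H3K4me1 8, 6 and 9. Whether these numbers bear on the labels of the groups was not tested. The libraries of a group were merged before states were assigned, so each group has 1 segmentation of unknown read depth, and how far mice of a group vary could not be set against any difference. No test was therefore made, and each value below describes the genome of 1 merged group. Within a group the same libraries gave both chromosomes their labels, but how many reads each chromosome received per bin is unknown. Whole liver was used, in which fewer cells of a type and less of a mark per cell cannot be told apart.

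Histone marks divide the genome into regions of recurrent composition. Active promoters carry H3K4me3 and enhancers carry H3K4me1, with H3K27ac where they are in use, while Polycomb complexes lay down H3K27me3 over silent developmental genes. Long stretches that carry none of these marks are called quiescent, and they are typically poor in genes, rich in adenine and thymine, and often lie at the nuclear lamina. In the model used here, states 1 and 2 mark transcription start sites (TSS) and their flanks, states 3 to 5 mark enhancers, state 6 is H3K27me3 alone, state 8 has no mark, and state 7 has weak H3K4me3 with very little H3K27me3.

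The sequences behind these labels differed in base composition, but a single bin need not resemble the rest of its class. For each transition from SD 3m to SD 12m, and for state 7 in the 3 groups, the longest stretch was taken. The sequences at the middle of these stretches are given as examples. They are read from RefSeq GRCm38.p6 on the forward strand, 5′ to 3′, in lower case with each CpG dinucleotide in capitals.
Chromosome 14, state 8 to 7 in SD 12m, chr14:83054601-83054800: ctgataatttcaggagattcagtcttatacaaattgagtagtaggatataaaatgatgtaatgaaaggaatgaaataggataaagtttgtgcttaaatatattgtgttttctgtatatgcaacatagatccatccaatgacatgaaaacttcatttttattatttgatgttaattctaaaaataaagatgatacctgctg
Chromosome 19, state 8 to 7 in SD 12m, chr19:9488001-9488200: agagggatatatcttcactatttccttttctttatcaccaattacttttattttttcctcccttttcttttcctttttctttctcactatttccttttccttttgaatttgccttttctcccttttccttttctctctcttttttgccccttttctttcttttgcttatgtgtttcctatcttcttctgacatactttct
Chromosome 19, state 7 to 8 in SD 12m, chr19:8053801-8054000: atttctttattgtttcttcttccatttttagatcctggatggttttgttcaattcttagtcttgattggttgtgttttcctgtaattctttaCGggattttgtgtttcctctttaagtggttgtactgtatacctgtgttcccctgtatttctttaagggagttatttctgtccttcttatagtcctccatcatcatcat
Chromosome 14, state 7 to 8 in SD 12m, chr14:58462201-58462400: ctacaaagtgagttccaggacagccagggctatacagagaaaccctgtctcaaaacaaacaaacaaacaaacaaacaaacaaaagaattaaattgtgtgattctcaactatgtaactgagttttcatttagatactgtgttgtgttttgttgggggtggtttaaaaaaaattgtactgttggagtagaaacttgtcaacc
Chromosome 14, state 8 to 6 in SD 12m, chr14:52423201-52423400: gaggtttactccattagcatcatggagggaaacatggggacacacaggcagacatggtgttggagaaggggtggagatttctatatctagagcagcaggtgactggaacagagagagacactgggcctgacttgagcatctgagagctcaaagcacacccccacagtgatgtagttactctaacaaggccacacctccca
Chromosome 19, state 8 to 6 in SD 12m, chr19:16955001-16955200: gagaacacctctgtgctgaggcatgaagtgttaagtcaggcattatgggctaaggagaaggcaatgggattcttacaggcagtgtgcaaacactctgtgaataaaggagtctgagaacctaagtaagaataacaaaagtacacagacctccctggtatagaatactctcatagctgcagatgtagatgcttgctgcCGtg
Chromosome 14, state 7 in the 3 groups, chr14:8772001-8772200: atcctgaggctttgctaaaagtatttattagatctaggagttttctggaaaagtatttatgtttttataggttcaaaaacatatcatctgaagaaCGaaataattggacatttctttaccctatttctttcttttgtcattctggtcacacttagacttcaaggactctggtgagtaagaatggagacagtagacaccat
Chromosome 19, state 7 in the 3 groups, chr19:61117801-61118000: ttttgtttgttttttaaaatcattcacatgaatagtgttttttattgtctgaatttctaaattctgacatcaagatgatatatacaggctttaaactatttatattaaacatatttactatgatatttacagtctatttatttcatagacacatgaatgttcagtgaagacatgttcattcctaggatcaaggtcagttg
The bin of chromosome 14 that went from state 8 to state 7 held 27% GC and no CpG, lay in a stretch of 180 kb without any gene and had state 7 in CR 12m as well. The corresponding bin of chromosome 19 held 32% GC, and 96% of its bases were repeats. The bin of chromosome 19 that went from state 7 to state 8 was 94.5% repeats, and that of chromosome 14 was 70% repeats. The bin that went from state 8 to state 6 was without repeats on chromosome 19, with 45% GC, and 84.5% repeats on chromosome 14, with 51% GC. These bins did not represent the transition. All bins that made it held 25.6% repeats and 41.6% GC on chromosome 14, and 24.7% and 41.9% on chromosome 19. The bins in state 7 in the 3 groups held 33.5% GC on chromosome 14 and 26% GC on chromosome 19.

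In young mice both chromosomes carried little state 7. State 7 covered 1.13% of chromosome 14 in SD 3m against 15.2% in SD 12m and 4.28% in the CR 12m group. It covered 1.03% of chromosome 19 in SD 3m against 1.49% in SD 12m and 0.591% in the CR 12m group. The starting levels were thus close, and the 12-month levels in SD were not. In length, state 7 went from 1.37 Mb to 18.6 Mb on chromosome 14 and from 0.605 Mb to 0.871 Mb on chromosome 19 between SD 3m and SD 12m. With caloric restriction, which the choice of the pair did not use but which shares SD 3m with it, the fold over SD 3m was 3.79 on chromosome 14 and 0.571 on chromosome 19. These folds too were the highest and the lowest of the 20 chromosomes, while the highest coverage in CR 12m was 7.19%, on chromosome 4. The 95% Wilson limits of the state coverages lay at most 0.124 percentage points from the value on chromosome 14 and 0.181 on chromosome 19, which covers the number of bins and neither the mice nor the dependence of neighbouring bins. When each 10 kb window was given its commonest state, the fold of SD 12m over SD 3m became 21.8 on chromosome 14 and 1.05 on chromosome 19.

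**Figure D1:**
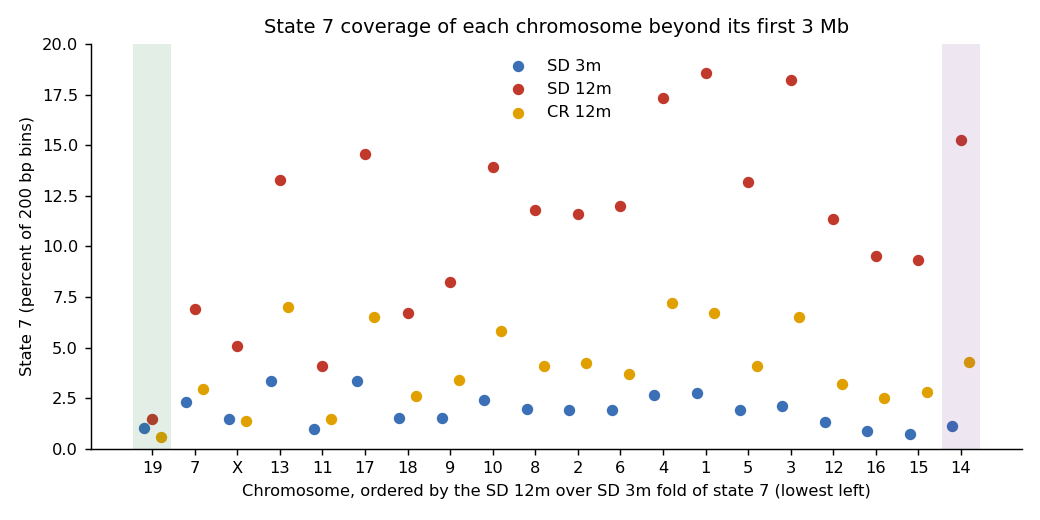
State 7 coverage in percent of 200 bp bins (vertical axis) of the 20 chromosomes, ordered by the fold of SD 12m over SD 3m, with 1 point for each group and the 2 described chromosomes shaded. Chromosome 19 on the left stays under 1.5% in the 3 groups, and chromosome 14 on the right reaches 15.2% in SD 12m from 1.13% in SD 3m.

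State 7 on chromosome 14 arose from quiescent chromatin, and on chromosome 19 little quiescent chromatin took this course. Of the 449845 bins of chromosome 14 in state 8 in SD 3m, 19.6% had state 7 in SD 12m and 5.17% in the CR 12m group. Of the 168849 such bins of chromosome 19, 2.0% had state 7 in SD 12m and 0.580% in the CR 12m group, and the CR 12m share was 0.291% when each 10 kb window was given its commonest state. The share in SD 12m was larger than that of chromosome 14 on chromosomes 1, 3 and 4, with 24.8%, 23.5% and 23.3%. State 8 covered 73.8% of chromosome 14 and 57.8% of chromosome 19 in SD 3m, so the quiescent share was also smaller on chromosome 19. Bins of state 7 in SD 12m that had been state 8 in SD 3m made up 94.9% of state 7 on chromosome 14 and 77.3% on chromosome 19.

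Taken over each whole chromosome, the state 7 that young mice already had was also kept in a smaller share of bins on chromosome 19. On chromosome 14, 67.8% of the 6870 bins with state 7 in SD 3m kept this state in SD 12m and 40.4% in the CR 12m group. On chromosome 19, 31.4% of the 3023 such bins kept it in SD 12m and 23.8% in the CR 12m group, the lowest shares of the 20 chromosomes in both groups. Most bins that left state 7 became state 8, which took 27.2% on chromosome 14 and 48.5% on chromosome 19 in SD 12m. The chromosomes differed more in the share that became active enhancer (2), state 4, which was 1.69% on chromosome 14 and 12.5% on chromosome 19 in SD 12m, and 1.19% and 17.9% in CR 12m.

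**Figure D2:**
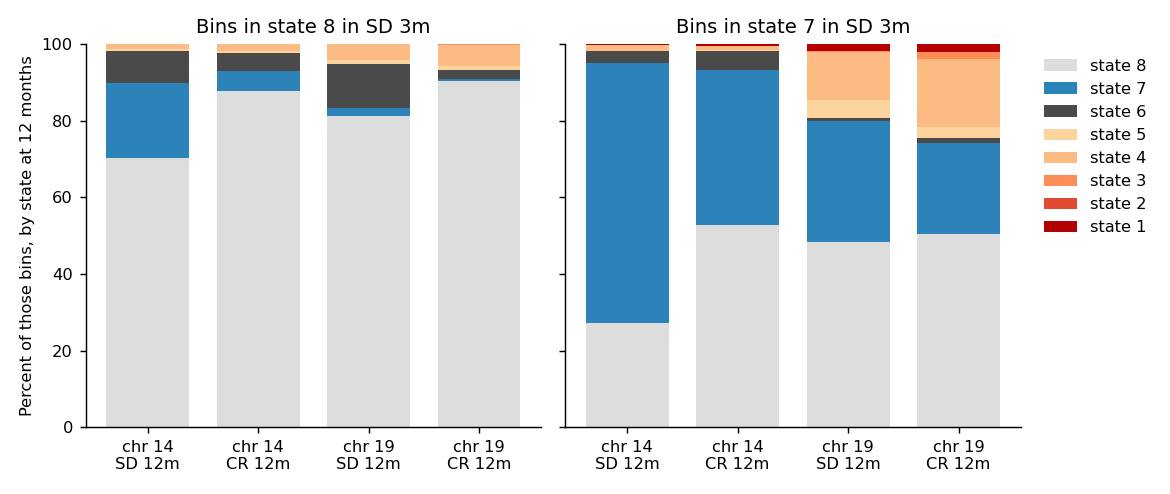
State at 12 months, in percent, of the bins that were in state 8 (left) or state 7 (right) in SD 3m, with 1 stacked bar for each chromosome and 12-month group. The state 7 part of the left panel is 19.6% for chromosome 14 in SD 12m and 2.0% for chromosome 19, and enhancer states take part of the former state 7 bins on chromosome 19.

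Quiescent chromatin of chromosome 19 went to state 6, the H3K27me3 state, in a larger share than to state 7. Of its state 8 bins, 11.5% were in state 6 in SD 12m, more than the 2.0% in state 7, while on chromosome 14 the share in state 6 was 8.39% and that in state 7 was 19.6%. In CR 12m the share in state 6 was 2.29% on chromosome 19 and 4.77% on chromosome 14. State 6 covered 6.72% of chromosome 19 in SD 3m against 10.9% in SD 12m and 5.41% in the CR 12m group, and on chromosome 14 it covered 6.81%, 9.69% and 6.25% in the same order. State 6 was therefore above SD 3m in SD 12m and below it in the CR 12m group on both chromosomes. Over the other 18 chromosomes it covered 9.93%, 15.0% and 10.9%, and so lay above SD 3m in both 12-month groups.

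The flanking and enhancer states lay to the same side of SD 3m on the pair. State 2, the flank of active TSS, had 0.384 times its SD 3m coverage on chromosome 14 and 0.362 times on chromosome 19 in SD 12m, and state 5, the poised enhancer, had 0.615 and 0.573 times. State 4 was 1.33 times as large on chromosome 14 and 1.59 times on chromosome 19. In all, 62.3% of the bins of chromosome 14 and 68.4% of those of chromosome 19 had the same state in the 3 groups.

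Stretches of state 7 became both more numerous and longer on chromosome 14. SD 3m held 405 unbroken stretches on chromosome 14 with a median length of 2.8 kb, SD 12m held 1390 with a median of 6.8 kb, and CR 12m held 895 with a median of 4.2 kb. Chromosome 19 held 118 stretches with a median of 3.8 kb in SD 3m, 180 with a median of 3.4 kb in SD 12m and 91 with a median of 3.2 kb in CR 12m. Lengthening was thus seen on chromosome 14 and not on chromosome 19. It was not particular to chromosome 14, as the median over the other 18 chromosomes was 3 kb in SD 3m, 6.2 kb in SD 12m and 4.2 kb in CR 12m. The longest stretch in SD 12m measured 180 kb on chromosome 14, 30.6 kb on chromosome 19 and 284.6 kb on the other 18. Of the state 7 bins of CR 12m on chromosome 14, 84.9% were also state 7 in SD 12m, and these were 23.8% of the state 7 bins of SD 12m. On chromosome 19 the same shares were 71.2% and 28.2%.

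In blocks of 1 Mb, state 7 of chromosome 14 was gathered in a few large domains. A block was called when its state 7 coverage was at least 5 percentage points above SD 3m, which held for 33.5% of all 2570 blocks of the genome for SD 12m and 15.3% for CR 12m. On chromosome 14, 48 of 122 blocks (39.3%) were called in SD 12m and 22 in the CR 12m group. On chromosome 19, 3 of 58 blocks (5.17%) were called in SD 12m and 1 in the CR 12m group. State 7 was lower than in SD 3m in 22 blocks of chromosome 14 and 18 of chromosome 19 in SD 12m, against 24.4% of the blocks of the genome, and in 41 and 23 blocks in CR 12m, against 41.9%. On chromosome 14, 17 blocks reached at least 50% state 7 in SD 12m and none did in CR 12m, and on chromosome 19 none did in either group. As the pair was selected on the SD contrast, the counts of SD 12m are given beside the genome as a description.

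The high blocks of chromosome 14 adjoined each other. Blocks with at least 20% state 7 in SD 12m numbered 27 on chromosome 14, lay in 7 unbroken runs and held 81.5% of its state 7. The 3 longest runs were chr14:80000001-86000000 with a mean state 7 of 0.640% in SD 3m against 63.0% in SD 12m and 19.6% in the CR 12m group, chr14:90000001-98000000 with 1.3%, 58.9% and 13.4%, and chr14:106000001-114000000 with 2.46%, 66.7% and 20.3%. These 3 runs comprised 6, 8 and 8 blocks with 2, 3 and 4 starts of protein-coding genes, and they were between 97.4% and 99.2% state 8 in SD 3m. No block of chromosome 19 reached 20% in SD 12m.

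**Figure D3:**
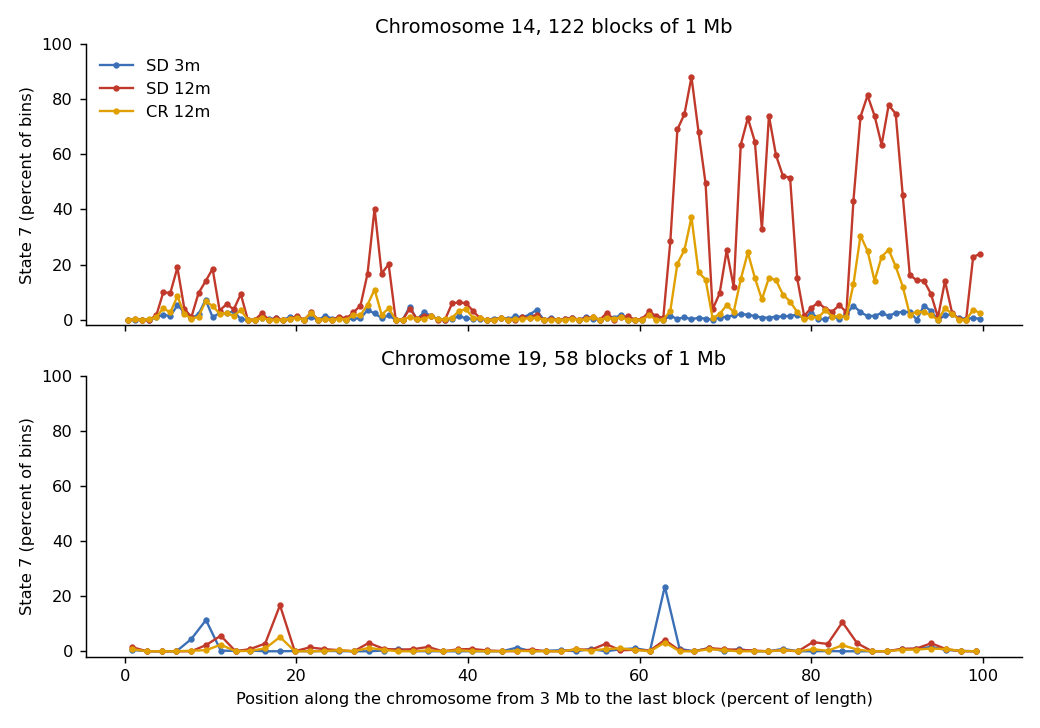
State 7 coverage in percent of bins of each 1 Mb block along chromosome 14 (122 blocks, top) and chromosome 19 (58 blocks, bottom), with a line for each group and position as a percent of the length. Chromosome 14 shows 3 broad domains above 20% in SD 12m that are lower in CR 12m, and chromosome 19 shows single peaks, the highest of which is 23.5% in SD 3m.

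The largest rises on chromosome 14 were in blocks with few or no genes. The block at chr14:83000001-84000000, without a protein-coding gene, held 0.18% state 7 in SD 3m against 88.0% in SD 12m and 37.1% in the CR 12m group. The block at chr14:108000001-109000000 held 1.3%, 81.3% and 25.0%, and its only protein-coding gene was Slitrk1, a neuronal membrane protein of synapse formation. The block of Slitrk5, a related gene, at chr14:111000001-112000000 held 1.4%, 77.9% and 25.4%. In each of the 3 blocks SD 12m was far above the other groups and CR 12m lay between. The blocks were picked by their rise in SD 12m, so a high SD 12m level follows from the choice. The genes themselves did not take state 7, as the body of Slitrk1 was state 8 in the 3 groups and that of Slitrk5 went from state 8 to state 6 in both 12-month groups. The next blocks, chr14:82000001-83000000 and chr14:94000001-95000000, without a protein-coding gene, reached 74.6% and 74.0% in SD 12m.

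Falls on chromosome 14 were small. The block of Fgf9, a growth factor, held 1.22% state 7 in SD 3m against 0% in SD 12m and 0.20% in the CR 12m group, and its state 6 went from 23.7% to 4.54% and 2.40%. The block of Txndc16, Fermt2, Ddhd1 and Gpr137c held 2.64%, 1.5% and 0.34%. The falling blocks of chromosome 14 together lost 0.116 Mb of state 7 against the 17.3 Mb that the rising blocks gained.

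On chromosome 19, most of the gain and of the loss lay in a few blocks. The 30 rising blocks gained 0.632 Mb of state 7 in SD 12m, and falling blocks lost 0.380 Mb. The 5 largest rises held 61.8% of the gain and the 3 largest falls 86.6% of the loss. Its fold of SD 12m over SD 3m was 3.8 without the 3 blocks of the largest falls and 0.795 without the 5 blocks of the largest rises, settings chosen after the data were seen, so the value of 1.44 rests on a handful of blocks. On chromosome 14 the fold was 14.3 and 11 under the same settings. Without the 3 falling blocks, the fold of CR 12m over SD 3m on chromosome 19 was 1.45 rather than 0.571. The last 431 kb of chromosome 19 were too short for a block and held 64.4 kb of state 7 in SD 3m, 79.2 kb in SD 12m and 63.8 kb in the CR 12m group.

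The largest fall was in the Cyp2c cluster, which encodes cytochrome P450 enzymes of drug and fatty acid metabolism that are abundant in liver. The block at chr19:39000001-40000000, with Cyp2c39, Cyp2c38, Cyp2c66 and Cyp2c68, held 23.5% state 7 in SD 3m against 4.1% in SD 12m and 3.18% in the CR 12m group. Its enhancer states 3 to 5 covered 28%, 48.2% and 55.5% in the same order. State 7 was thus lower and the enhancer states higher in both 12-month groups. Of the 1174 bins that had state 7 in this block in SD 3m, 54.9% had state 8 in SD 12m, 30.1% had states 3 to 5 and 14.4% had state 7, and in CR 12m 46.0%, 40.3% and 13.2%. Of the 15 Cyp2c genes, 5 bodies lost at least 10 percentage points of state 7 in each 12-month group, against 1.03% of all protein-coding gene bodies in SD 12m and 1.6% in the CR 12m group. The body of Cyp2c38 was 40.1% state 7 in SD 3m and had no state 7 bin in either 12-month group, while its enhancer states went from 7.05% to 57.7% and 57.2%. The body of Cyp2c65 went from 23.6% to no state 7 bin, and 97.6% of it was state 8 in both 12-month groups. The annotated body of Cyp2c39 spans 222 kb and overlaps neighbouring members, and it held 35.5% state 7 in SD 3m against 9.26% in SD 12m and 5.31% in the CR 12m group. Members such as Cyp2c29, Cyp2c37, Cyp2c50, Cyp2c54 and Cyp2c70 had no state 7 bin in any group. The Cyp2c genes are paralogs that may share reads, the block is 60.9% repeats, and the part of either in these labels was not tested.

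The other large falls lay in the Slc22a cluster, which encodes transporters of organic ions. The block at chr19:8000001-9000000, with Slc22a29, Slc22a28, Slc22a30 and Slc22a8, held 11.3% state 7 in SD 3m against 2.22% in SD 12m and 0.40% in the CR 12m group, and its enhancer states covered 43.1%, 53.8% and 56.6%. The block at chr19:7000001-8000000, with Macrod1, Slc22a27, Flrt1 and Mark2, held 4.38%, no bin and 0.20%. The longest stretch that went from state 7 to state 8 on chromosome 19, chr19:8042801-8065200, overlaps Slc22a28, whose body was 11.4% state 7 in SD 3m and had no such bin in SD 12m or CR 12m. These 3 blocks of chromosome 19 were picked by their fall in SD 12m and held less state 7 in both 12-month groups. They were also the 3 highest in SD 3m and held 64.8% of the state 7 of chromosome 19 in that group. The Slc22a genes of this cluster are paralogs too, and the same limit holds for them.

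The largest rises on chromosome 19 were in the olfactory receptor cluster and in gene-free sequence. The block at chr19:13000001-14000000, with 33 gene starts, among them Olfr1477, Olfr1466, Olfr1496 and Olfr1491, had no state 7 bin in SD 3m and held 16.7% in SD 12m and 5.18% in the CR 12m group. The gene-free block at chr19:51000001-52000000 went from no bin to 10.5% and 2.18%. The block of Ahnak, Incenp, Asrgl1 and Best1 at chr19:9000001-10000000 went from 0.24% to 5.64% and 2.38%. In these 3 blocks CR 12m lay between the other groups, as on chromosome 14, an order that picking blocks by their rise in SD 12m favours. The block of Rorb, a nuclear receptor of retina and brain, held 3.06% in SD 12m and 1.24% in the CR 12m group, and the gene-free block at chr19:49000001-50000000 held 3.32% and 0.74%, neither with any in SD 3m.

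**Figure D4:**
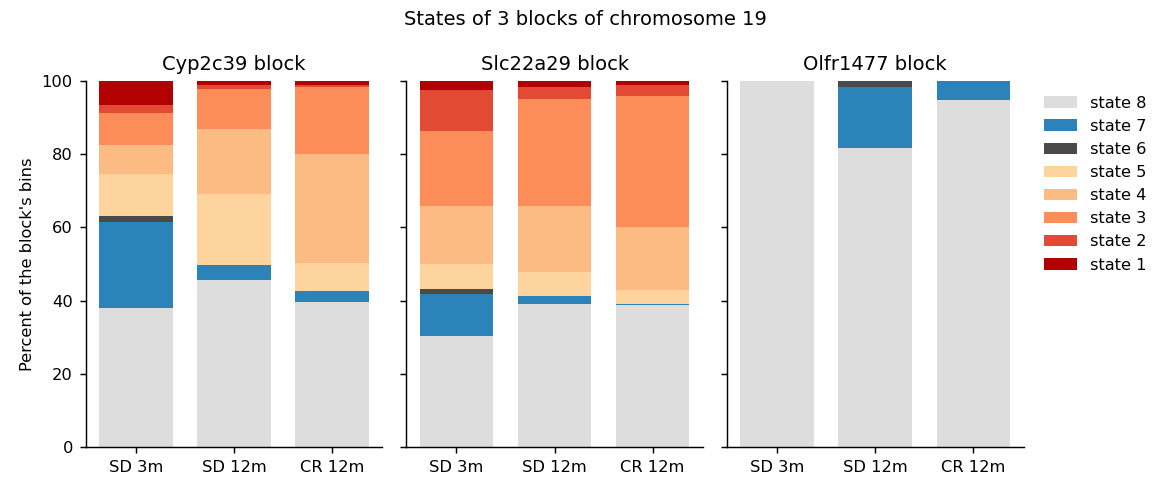
States of 3 blocks of chromosome 19 in percent of bins (vertical axis) in each group, as stacked bars named by the gene that covers most of the block. In the Cyp2c39 block state 7 goes from 23.5% in SD 3m to 4.1% in SD 12m as states 3 to 5 widen, and in the Olfr1477 block state 7 appears in SD 12m (16.7%) and CR 12m (5.18%).

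State 7 was also found in the same place in the 3 groups. The longest stretch in state 7 in the 3 groups measured 27.8 kb on chromosome 19, chr19:61104001-61131800, and lay wholly within Zfp950, a zinc finger gene. The body of Zfp950 was 35.6% state 7 in SD 3m against 35.1% in SD 12m and 31.9% in the CR 12m group. On chromosome 14 the longest such stretch, chr14:8766001-8778200, measured 12.2 kb between Cfap20dc and Fhit, outside any gene, and 70.6% of it was repeats.

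The 2 chromosomes differ in composition, and the contrast was read against it. Chromosome 14 has 41.2% GC and 6.97 protein-coding genes per Mb, and chromosome 19 has 42.7% GC and 12.1 genes per Mb. Repeats make up 34.8% of chromosome 14 and 31.0% of chromosome 19. Across the 1 Mb blocks of chromosome 14, GC content and state 7 in SD 12m had a Pearson correlation of -0.79 (Spearman -0.87, n = 122 blocks), and on chromosome 19 the correlation was -0.44 (Spearman -0.46, n = 58 blocks). Blocks of a chromosome share the same libraries and adjoin each other, so these values describe the segmentation and carry no test. In SD 3m the correlation was -0.32 on chromosome 14 (Spearman -0.46) and -0.094 on chromosome 19, where the Spearman value had the opposite sign (0.23). The number of gene starts per block had a correlation with state 7 in SD 12m of -0.45 on chromosome 14 (Spearman -0.69) and 0.029 on chromosome 19 (Spearman -0.26, of the opposite sign), where the block with the highest state 7 holds the olfactory receptors.

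Chromosome 14 has a class of blocks that chromosome 19 lacks. Blocks under 37% GC numbered 22 on chromosome 14, none on chromosome 19 and 189 among the 2570 of the genome. The 22 blocks held 1.37% state 7 on average in SD 3m, 61.2% in SD 12m (from 11.8% to 88.0%) and 17.2% in CR 12m, and they accounted for 72.6% of the state 7 of chromosome 14 in SD 12m and 22% in SD 3m. The 167 blocks of the same class on the other 18 chromosomes averaged 48.3% in SD 12m, with a range from 0.54% to 91.0%, so those of chromosome 14 lay within this range. Within chromosome 14, the mean of SD 12m went from 23.0% at 37 to 39% GC to 9.33% at 39 to 41%, 1.84% at 41 to 43% and 0.319% at 45% and over.

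**Figure D5:**
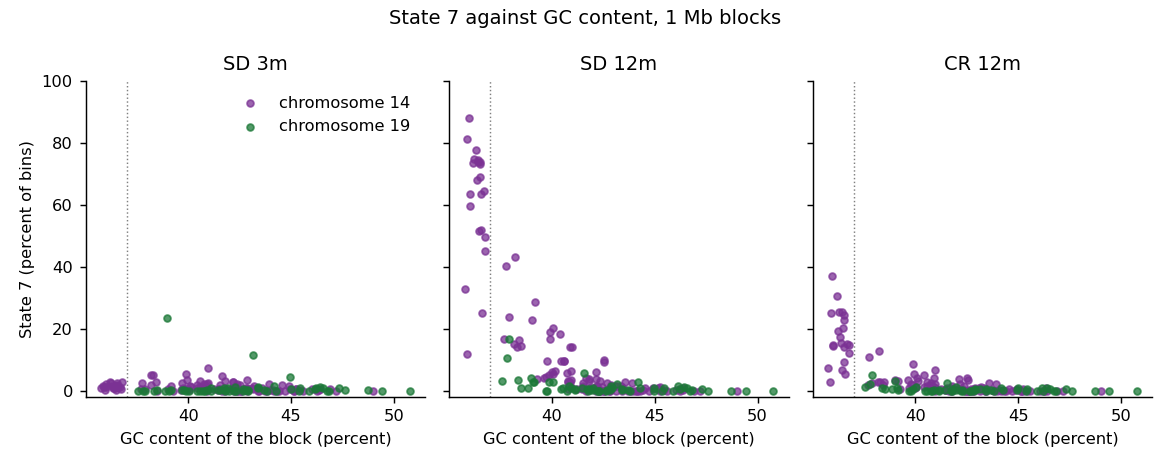
State 7 coverage in percent of bins against the GC content in percent of each 1 Mb block of chromosomes 14 and 19, with a panel for each group and a dotted line at 37% GC. Blocks left of the line are found on chromosome 14 alone, average 61.2% state 7 in SD 12m and 1.37% in SD 3m, and at 37 to 39% GC the averages in SD 12m are 23.0% for chromosome 14 and 5.62% for chromosome 19.

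State 7 of the pair is given here in blocks of like composition, as a description, since SD 3m and SD 12m chose the pair. At 37 to 39% GC, the 8 blocks of chromosome 14 averaged 23.0% state 7 in SD 12m and ranged from 14.2% to 43.2%, while the 7 blocks of chromosome 19 averaged 5.62% and ranged from 0.72% to 16.7%. At 39 to 41% GC the averages were 9.33% on chromosome 14 and 1.33% on chromosome 19. When the blocks of chromosome 19 were weighted to the GC classes (1 percentage point wide) of chromosome 14, over the 12 classes that both have, its state 7 in SD 12m was 1.2%, against 5.12% for the blocks of chromosome 14 in these classes, and it was 0.727% with the commonest state of each 10 kb window. In CR 12m the values were 0.396% and 1.43%. Weighted instead by classes of the number of gene starts, chromosome 19 had 1.56% in SD 12m against 15.2% on chromosome 14. The other 18 chromosomes, weighted to the GC classes of chromosome 19, had 6.74% in SD 12m where chromosome 19 had 1.37%, and weighted to those of chromosome 14 they had 13.8% where chromosome 14 had 15.2%. In SD 3m the other 18 chromosomes had 1.93% where chromosome 19 had 0.931%, and 1.98% where chromosome 14 had 1.13%, and in CR 12m they had 2.72% against 0.486% and 5.14% against 4.27%. The pair was chosen by SD 3m and SD 12m as extremes of the 20 chromosomes, so these values describe the choice and do not separate it from composition.

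At 37 to 41% GC, state 6 was also higher in SD 12m on both chromosomes. In the 37 to 39% class it went from 0.289% in SD 3m to 3.85% in SD 12m on chromosome 19, below the 5.62% of state 7 there, and from 1.0% to 5.90% on chromosome 14. In the 11 blocks of chromosome 19 of 39 to 41% GC, state 6 averaged 1.01% in SD 3m against 11.4% in SD 12m and 0.227% in the CR 12m group. The 27 blocks of chromosome 14 in this class averaged 5.62%, 15.8% and 10.8%. In this class, state 6 in CR 12m was thus below the SD 3m level on chromosome 19 and above it on chromosome 14.

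Single bins were compared in composition as well. The bins of chromosome 14 that went from state 8 to state 7 in SD 12m had 36.6% GC, 4.81 CpG per kb and 12.3% of them in a protein-coding gene, and the state 8 bins that stayed had 41.1% GC, 7.22 CpG per kb and 37.6% in a gene. On chromosome 19 the bins that went to state 7 had 38.5% GC, 6.40 CpG per kb and 10.9% in a gene, and those that stayed in state 8 had 41.2% GC, 7.75 CpG per kb and 34.4% in a gene. On both chromosomes the bins that gained state 7 were thus poorer in GC, CpG and genes. Repeats made up 38.4% of the gained bins of chromosome 14, against 39.5% of those that stayed in state 8, and 44.8% against 35.2% on chromosome 19. The bins of chromosome 19 that left state 7 were 63.0% repeats, and those of chromosome 14 were 40.4%.

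Few gene bodies were reached by state 7 on either chromosome. A body was called when its state 7 share was at least 10 percentage points above SD 3m, which held for 4.31% of all 21521 protein-coding genes of the genome for SD 12m and 1.8% for CR 12m. On chromosome 14, 19 of 850 genes (2.24%) were called in SD 12m and 2 in the CR 12m group, and on chromosome 19, 9 of 705 (1.28%) were called in SD 12m and 2 in the CR 12m group. The blocks of chr14:3000001-7000000, with 60.5% to 63.4% repeats, and the block at chr14:42000001-43000000 were at least 99.88% state 8 in the 3 groups. Their genes are among the 850, and nearly all their bins among those that stayed in state 8. Whether reads could be placed there was not tested.

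Among genes of at least 20 kb, the 6 with the largest rise of state 7 on chromosome 14 were named by that rank alone. Klhl1, which encodes an actin-binding protein of neurons, held 2.32% state 7 in SD 3m against 61.4% in SD 12m and 8.55% in the CR 12m group over 414 kb. Pcdh9, a protocadherin of cell adhesion, held 0.182%, 33.1% and 6.91% over 879 kb. Dach1, a transcriptional cofactor of development, had no state 7 bin in SD 3m and held 32.3% in SD 12m and 6.95% in the CR 12m group. Itgbl1, which encodes a secreted integrin-like protein, held 31.0% in SD 12m and 5.70% in the CR 12m group, and Fgf14, a regulator of neuronal sodium channels, held 30.2% and 3.18%. In each of these genes CR 12m was between the other groups and closer to SD 3m, an order that the ranking by SD 12m favours. The predicted gene Gm41099 held 36.8% in SD 12m and 18% in the CR 12m group.

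On chromosome 19 the largest rises among genes of this length were small. Kcnip2, which encodes a potassium channel-interacting protein, held 10.7% state 7 in SD 12m and had no such bin in SD 3m or CR 12m. Ptar1, a prenyltransferase subunit, held 9.61% in SD 12m alone. Tdrd1, a germline gene of the piRNA pathway, was wholly state 6 in SD 3m and CR 12m and held 6.79% state 7 in SD 12m. The following genes, Ms4a19, 1700028P14Rik and Ms4a4c, gained 6.11 percentage points or less.

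Genes of liver function were mostly in TSS or enhancer states. The TSS of the 14 hepatocyte genes listed on chromosome 14, such as Itih4, Mat1a, Glud1 and Ephx2, lay in states 1 to 5 in the 3 groups, and no body held state 7. On chromosome 19, 24 of 25 lay in states 1 to 5 in each group, among them Cpt1a, the gatekeeper of mitochondrial fatty acid oxidation, Pcx, Scd1 and Rbp4, and the TSS of Cyp2c39 lay in state 7. These counts include state 5, the poised enhancer, which held the TSS of Cyp26a1 in SD 3m and SD 12m, of Cyp2c37 in SD 3m and of Keg1 in SD 12m. Their median share of body in states 3 to 5 was 88.2%, 88.8% and 92.5% on chromosome 14 in SD 3m, SD 12m and CR 12m, and 76.1%, 85.9% and 84.5% on chromosome 19, against 16.3%, 18.2% and 16.8% over all genes of chromosome 14 and 51.5%, 71.2% and 73.4% over all genes of chromosome 19. Over all genes of chromosome 14 in SD 3m, 310 of 850 TSS lay in states 1 and 2 and 115 in states 3 to 5. On chromosome 19, 355 and 152 of 705 did, so such states were common at TSS there in any case. The labelled tissue thus had TSS or enhancer states at nearly all of the hepatocyte genes listed.

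Some of the listed neuronal adhesion and channel genes gained state 6 in SD 12m on both chromosomes, and fewer gained state 7. On chromosome 14, 4 of 15 bodies gained at least 10 percentage points of state 7 in SD 12m, namely Nrg3, Pcdh9, Pcdh17 and Gpc5, and none did in CR 12m. Nrg3, a ligand of the ErbB receptors, held 1.26% in SD 3m against 30.2% in SD 12m and 4.91% in the CR 12m group. On chromosome 19, 1 of 14 did, Kcnip2, and Attrnl1 was not found. A gain of at least 10 percentage points of state 6, counted after the values were seen, was found in 9.48% of all gene bodies of the genome for SD 12m and 7.32% for CR 12m. On chromosome 19 it was found in 7 of the 14 neuronal genes in SD 12m and 2 in the CR 12m group, and on chromosome 14 in 5 of 15 and 3. Htr7, a serotonin receptor, was 5.01% state 6 in SD 3m against 84.2% in SD 12m and 1.8% in the CR 12m group. Trpm3, an ion channel, had no state 6 bin in SD 3m or CR 12m and held 29.2% in SD 12m. Prune2 held 0.596%, 48.4% and 4.32%, and it overlaps the longest stretch of chromosome 19 that went from state 8 to state 6, chr19:16908801-17001400. In these 3 genes the CR 12m level was near that of SD 3m, but the list was not uniform. Nrxn2, a synaptic adhesion gene, held 44.8% state 6 in SD 3m against 65.5% in SD 12m and 76.7% in the CR 12m group, and Slit1, an axon guidance gene, held 41.4%, 63.8% and 71.3%. State 6 was lower in SD 12m than in young mice in Lgi1, which held 100%, 34.7% and 72.5%, and in Cnnm1 and Kcnip2, which held 39.7% and 13.1% in SD 3m and none at 12 months. On chromosome 14, Cacna1d held 26.9% state 6 in SD 3m, none in SD 12m and 3.10% in the CR 12m group. Some genes of the list were in active states in this tissue, as the bodies of Kcnk4 and Kcnk7 were wholly enhancer states in the 3 groups.

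Developmental regulators were mostly in state 6, the Polycomb state. The TSS of 8 of 15 on chromosome 14 lay in state 6 in SD 3m, SD 12m and CR 12m, and on chromosome 19 of 8, 11 and 9 of the 13 found (Hmx2 and Six6 were not). Over all genes, 82, 110 and 76 of 850 TSS on chromosome 14 lay in state 6 in the same order. On chromosome 19, 46, 60 and 34 of 705 did. Pax2, Tlx1, Fgf8, Vax1 and Emx2 on chromosome 19 and Otx2, Pou4f1, Zic2 and Zic5 on chromosome 14 were in state 6 at their TSS in the 3 groups. Dmrt2, a transcription factor of somite development, was wholly state 8 in SD 3m and CR 12m and wholly state 6 in SD 12m, and Rorb was state 8 in SD 3m and CR 12m and 57.7% state 6 in SD 12m. Ednrb, the endothelin receptor B on chromosome 14, held 14% state 7 in SD 3m and was wholly state 6 in SD 12m, and 90% of it was state 6 in CR 12m. Of the list, Dach1 alone gained at least 10 percentage points of state 7. The median body share of state 7 was 0% in the hepatocyte, neuronal and developmental lists in each group, as it was over all genes of both chromosomes.

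Clustered gene families, among them olfactory receptors, lie on both chromosomes. Of the 63 olfactory receptors of chromosome 19, 7 gained state 7 in SD 12m and 1 in the CR 12m group, and the short bodies of Olfr1451, Olfr1453, Olfr1454 and Olfr1467 were wholly state 7 in SD 12m and wholly state 8 in SD 3m and CR 12m. Of the 39 olfactory receptors of chromosome 14, 1 gained state 7, Olfr749 with 29.3% in SD 12m, while 7 gained state 6 in SD 12m and 2 in the CR 12m group. The longest stretch of chromosome 14 that went from state 8 to state 6, chr14:52376201-52470400, held Olfr1508, Olfr1509, Olfr1510 and Olfr1511. Of the olfactory receptors, 11.1% thus gained state 7 on chromosome 19 and 2.56% on chromosome 14, against 1.28% and 2.24% of all genes there. For state 6 the shares were 4.76% and 17.9%, against 6.10% and 8.94%, and no test compared them. In such short bodies 1 bin can pass the limit, as in Olfr1418 and Olfr1472 with 16.7%. Olfr1453, Olfr1454, Olfr1467, Olfr1472 and Olfr1495 lie in the block picked above by its rise in state 7. Of the 2 vomeronasal receptors of chromosome 14, Vmn2r89 held 35.4% state 7 in SD 12m. The 21 Ms4a genes of chromosome 19 and the 18 ribonuclease A genes of chromosome 14 had no state 7 call. Lists of this size cannot set that apart from the shares of all genes. The Ms4a genes differed in another way, since their median share of body in states 3 to 5 was 33.3% in SD 3m against 2.83% in SD 12m and 0% in the CR 12m group, while that over all genes of chromosome 19 was higher at 12 months. Ms4a7, a gene of macrophages, went from 71.1% to no such bin in either 12-month group, and Ms4a4a from 100% to 13.6% and 0%. Not every member was lower in both 12-month groups. Ms4a6b held 83.6%, 100% and 72.1%, Ms4a6c held 98.9%, 100% and 0%, and Ms4a10 held 38.1%, 22.2% and 47.6%. The study reports that histology of these livers showed no structural differences in infiltrating cells, and it also names infiltration of aged tissue among its limits. Whether the number of immune cells in these livers differed was not tested here. Members of these families are paralogs that may share reads, which was not tested either.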

How the data were processed

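ChIP-seq of 4 histone marks was performed by the authors on formalin-fixed, paraffin-embedded livers. Per the labels and the study's methods, reads were aligned to mm10 with BWA (0.6.2-r126), and reads with a mapping quality under 1, on other chromosomes or in duplicate were removed with SAMtools (0.1.18). The authors merged the libraries of each group, binarized them and trained 1 ChromHMM model of 8 states. The deposited value is the state label of each 200 bp bin, not a count or signal, so read depth is unknown, and the labels already carry the binarization and the smoothing along the genome. How reads from repeated sequence were placed bears on the labels there and was not tested.

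Coverage gives how many bins, in percent, carry a state, folds divide 2 coverages, and transitions follow the bins of a given SD 3m state, computed with Python 3.11.15, numpy 2.4.6 and pandas 2.3.3. Figures used matplotlib 3.10.9. GC content, repeats (bases in lower case) and genes came from RefSeq GRCm38.p6, the assembly of mm10, whose chromosome lengths gave the same number of bins. Bins with an unassembled base were left out of GC, CpG and repeat values. Blocks of 1 Mb began at 3 Mb and needed 500 kb of assembled sequence. The functions were checked on simulated segmentations.

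Samples were grouped by the labels, and each segmentation by the group named for it. The chromosomes, gene lists and settings were chosen with earlier results of these data known. Named were the members of the gene lists, per chromosome the 5 blocks with the largest rise and the 3 with the largest fall of state 7 with up to 4 genes that cover most of them, the 6 genes of at least 20 kb with the largest rise, and the longest stretch of each transition. Genes named from a list beyond the counts are examples. A block that this rule names on chromosome 14 is not reported here. SD 6m was not analysed here.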

Additional observations from a re-analysis of the deposited data

Results flagged for a closer look

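State 7 on chromosome 19 moved in opposite directions with age in the 2 diets. Its fold over SD 3m was 1.44 in SD 12m and 0.571 in the CR 12m group. State 6 did so on both chromosomes, with folds over SD 3m of 1.42 in SD 12m and 0.918 in the CR 12m group on chromosome 14, and of 1.63 and 0.805 on chromosome 19. Each group has 1 segmentation and both comparisons use the same SD 3m, so these differences between diets were not tested. On chromosome 19 the opposite directions rest on a few blocks. Without the 3 blocks of the largest falls its state 7 fold was 3.8 in SD 12m and 1.45 in the CR 12m group, and without the 5 blocks of the largest rises it was 0.795 and 0.379.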

How the results depend on the processing

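No paired analysis was possible because each group has 1 segmentation of merged libraries. For the same reason no library could be left out. Of 34 recomputed values, 19 stayed within the 95% limits over bins or blocks of the reported value, and directions did not change. With the commonest state of each 10 kb window, the fold of state 7 in SD 12m was 21.8 on chromosome 14 and 1.05 on chromosome 19, the shares of state 8 that went to state 7 were 19.1% and 1.34% in SD 12m and 4.39% and 0.291% in CR 12m, and the GC-weighted coverage of chromosome 19 was 0.727%. With the first 3 Mb included, these shares were 18.9%, 1.83%, 5.0% and 0.532% in the same order. With stretches of at least 1 kb alone, the fold on chromosome 14 was 13.9. The GC-weighted coverage of chromosome 19 was 1.52% with blocks of 500 kb, 1.09% with blocks of at least 950 kb of assembled sequence and 1.56% with gene start classes. In settings chosen after the data were seen, the fold was 14.3 on chromosome 14 and 3.8 on chromosome 19 without the 3 blocks of the largest falls, and 11 and, in the opposite direction, 0.795 without the 5 blocks of the largest rises, which by construction removes the blocks that carry the value. The correlation of GC content with state 7 in SD 12m on chromosome 14 was -0.67 over the blocks of at least 37% GC. Except where the construction shows it, the cause was not tested. The depth of the merged files is unknown, and intervals over bins say nothing of the spread between mice.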
